A study of Mus musculus with 16 samples.

Results

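Ubb, Rpl26 and the annotated copies of their coding sequences were followed through bulk RNA-seq of mouse frontal cortex (FC) and cerebellum (Cere). The 6 genes were Ubb with its copies Ubb-ps and Gm8797 (the Ubb group) and Rpl26 with its copies Gm15772 and Gm10136 (the Rpl26 group). They had 13 transcripts among the 142435 in the count matrices, 5 in the Ubb group and 8 in the Rpl26 group, out of 55045 gene symbols. The members were chosen by their levels in Upf3b-KO against Ctrl in these same libraries, where the parent genes were low and copies were high in Upf3b-KO. Every comparison of the members between Upf3b-KO and Ctrl below is therefore a description with no test. Differences between FC and Cere within a genotype, and other genes, were not used in that choice and were tested.

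The libraries came from adult Upf3b-null mice (Upf3b-KO) and littermate controls (Ctrl), with 4 libraries for each region and genotype, so the groups were FC Ctrl, FC Upf3b-KO, Cere Ctrl and Cere Upf3b-KO. Both regions were taken from the same 4 mice of each genotype, but the labels do not tie libraries to mice. Tests between FC and Cere therefore treated libraries of the same animals as independent samples. The labels state neither age in weeks nor strain nor sex, and the spread between libraries may be partly technical. UPF3B, the protein of Upf3b, takes part in nonsense-mediated RNA decay (NMD), and the study compared the genotypes to find RNAs whose level depends on it. The values are RSEM expected counts, which estimate the reads that each transcript gave, and levels are written in CPM, that is, scaled to the library total. The 15 deep libraries held 27660078 to 35238677 counts, so 3 counts corresponded to 0.0851 to 0.108 CPM. Cere Upf3b-KO replicate 1 held 64981 counts, where 3 counts correspond to 46.2 CPM, and was left out, so Cere Upf3b-KO has n = 3. Upf3b itself was at 14.2 to 15.7 CPM in FC Ctrl and 0.229 to 0.857 in FC Upf3b-KO, and at 20.9 to 23.6 in Cere Ctrl and 0.617 to 0.965 in Cere Upf3b-KO.

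The labelled regions were checked against their markers. The summed level of 6 cerebellar genes was 26.1 to 35.4 CPM in all FC libraries, 6709 to 6770 in Cere Ctrl and 2926 to 2941 in Cere Upf3b-KO. That of 5 cortical neuron genes was 1512 to 1571 in FC Ctrl and 1399 to 1413 in FC Upf3b-KO. In Cere it was 459.9 to 482 in Ctrl and 291 to 299 in Upf3b-KO, and the genotypes overlapped in neither region. In Cere, 3 of these 5 genes were under 1 CPM on average in each genotype, so the sum there rests on few genes. Markers of other tissues moved with genotype, as all 6 choroid plexus genes rose in Upf3b-KO in both regions by edgeR's quasi-likelihood test. Their summed level was 20.8 to 22.1 CPM in FC Ctrl and 2156 to 2209 in FC Upf3b-KO, and 25.0 to 28.8 in Cere Ctrl and 1369 to 1391 in Cere Upf3b-KO, with 2 of the 6 under 1 CPM on average in Ctrl. All 6 striatal genes rose in FC Upf3b-KO, from a sum of 143 to 155 CPM to 733 to 745. In Cere 3 rose and 1 fell, with sums of 368 to 379.9 in Ctrl and 312 to 323 in Upf3b-KO. There, 2 of the 6 were under 1 CPM on average in Ctrl and 1 in Upf3b-KO. All 3 oligodendrocyte genes rose in both regions, from a sum of 5421 to 5479.6 CPM to 7129.9 to 7185 in FC and from 4517 to 4618 to 10179.7 to 10282 in Cere. Of 3 microglial genes 1 fell in FC, and 0 when TMM scaling was left out, with sums of 149.9 to 157 CPM in Ctrl and 152 to 157 in Upf3b-KO, and 2 rose in Cere, from 41.9 to 45.8 to 52.5 to 58.1. In bulk tissue, fewer cells of a type and less RNA per cell cannot be told apart, and the part of these tissues in the values below was not tested.

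Ubiquitin is a small protein that is joined to other proteins to mark them, most often for the proteasome. Cells make it as precursors that are cut into single units. Ubb encodes polyubiquitin, head-to-tail repeats of ubiquitin. Rpl26 is a protein of the large ribosomal subunit near the exit of the tunnel through which the new chain leaves, it is modified by the ubiquitin-like protein UFM1, and it is known to bind p53 mRNA. Both parents are among the many abundantly expressed genes that have left processed pseudogenes, intronless copies inserted elsewhere in the genome. A short read from a stretch that parent and copy share fits both, and RSEM divides such reads by its model. The levels given here are therefore assignments against the reference sequence, and whether the mice of either genotype carry the reference bases where parent and copy differ was not tested.

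In the reference genome (GRCm39, annotation GENCODE vM39) both parents lie on the plus strand of chromosome 11, with Ubb-201 at 62441994-62445102 and Rpl26-201 at 68792344-68795360. Ubb-ps lies on the plus strand of chromosome 14 within 46321485-46322457, where the annotation gives this symbol to 2 overlapping gene records, a transcribed processed pseudogene with Ubb-ps-201 and a long noncoding gene with the spliced Ubb-ps-202. They are counted here as 1 gene. Gm8797 is on chromosome 3 at 5815866-5816355, Gm15772 on chromosome 5 at 3286431-3286868, and Gm10136 on the minus strand of chromosome 19 at 28980808-28981242. Gm8797 is annotated as protein coding, and Gm15772 and Gm10136 are annotated as processed pseudogenes. The Ubb coding sequence is 918 bases long and holds 4 repeats of 228 bases, which is 76 codons each. Between these repeats there were 2 to 10 differences. Gm8797 has an open reading frame of 234 bases with 1 such repeat, which was closest to repeat 2 of Ubb, at 3 differences over 228 bases. The 685 bases of Ubb-ps-201 lay on Ubb coding bases 231 to 915 without a gap and differed at 10 of them.

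Repeat 2 of Ubb is shown with the matching stretch of both copies because it is the part that all 3 genes share. The sequences run 5′ to 3′, and capitals mark bases at which a copy differs from Ubb, or, in Ubb, at which at least 1 copy differs. The Ubb repeat lies in the coding exon at chr11:62443200-62443427, the Gm8797 repeat at chr3:5815964-5816191 and the Ubb-ps stretch of 226 bases at chr14:46321585-46321810, all on the plus strand.
Ubb: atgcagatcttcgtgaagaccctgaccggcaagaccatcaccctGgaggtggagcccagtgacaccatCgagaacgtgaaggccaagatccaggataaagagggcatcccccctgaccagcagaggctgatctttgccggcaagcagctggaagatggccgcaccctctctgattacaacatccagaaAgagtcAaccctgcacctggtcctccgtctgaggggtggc
Gm8797: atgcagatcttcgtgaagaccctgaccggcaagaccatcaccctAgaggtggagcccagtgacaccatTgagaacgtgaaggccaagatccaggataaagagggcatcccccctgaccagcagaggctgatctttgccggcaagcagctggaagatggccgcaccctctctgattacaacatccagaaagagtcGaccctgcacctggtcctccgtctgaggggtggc
Ubb-ps: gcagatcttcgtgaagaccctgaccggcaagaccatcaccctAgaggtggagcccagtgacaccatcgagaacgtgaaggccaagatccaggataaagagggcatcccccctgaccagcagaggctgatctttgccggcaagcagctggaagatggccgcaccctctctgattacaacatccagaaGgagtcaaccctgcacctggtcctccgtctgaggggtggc

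Counted from 1 at the start of the repeat, the substitutions from Ubb to Gm8797 were G45A, C69T and A195G, and each left the amino acid as it was. Over its 226 bases of this repeat, Ubb-ps differed from Ubb at 2.

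The Rpl26 coding sequence is 438 bases long. Gm15772 matched it over its whole length with 2 differences (99.5% identity), and Gm10136 had 5 differences over 435 aligned bases (98.9%). Coding bases 147 to 318 are shown because they hold both differences of Gm15772 and 4 of the 5 of Gm10136. In Rpl26 the stretch is split between exons from chr11:68793247 to chr11:68795199. It lies without introns at chr5:3286577-3286748 in Gm15772 and at chr19:28980925-28981096, minus strand, in Gm10136. Capitals again mark the bases that differ.
Rpl26: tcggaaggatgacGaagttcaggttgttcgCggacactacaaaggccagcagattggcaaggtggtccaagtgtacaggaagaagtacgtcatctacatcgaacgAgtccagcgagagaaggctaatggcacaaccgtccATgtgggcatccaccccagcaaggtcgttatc
Gm15772: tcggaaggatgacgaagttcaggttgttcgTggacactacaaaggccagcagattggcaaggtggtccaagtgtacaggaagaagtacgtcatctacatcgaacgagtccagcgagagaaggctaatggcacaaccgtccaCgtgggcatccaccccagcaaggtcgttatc
Gm10136: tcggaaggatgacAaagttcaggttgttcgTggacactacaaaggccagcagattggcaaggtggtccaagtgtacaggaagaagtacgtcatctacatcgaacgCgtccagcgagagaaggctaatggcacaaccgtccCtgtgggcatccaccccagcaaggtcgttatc

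Counted from 1 at the A of the start codon, Gm15772 differed by C177T and T288C, neither of which changes the amino acid. Gm10136 differed by G160A, C177T, A252C, A287C and G417A, of which G160A and A287C change it. All 100-base windows of each transcript were compared with all other genes, since the reads were sequenced for 100 cycles. Reads came in pairs and either mate can tell genes apart, so these shares are not shares of read pairs that fit several genes. Of such windows, 29.8% in Ubb-201, 77.1% in Ubb-ps-201 and 56.5% in Gm8797-201 were identical to a window of another gene. The share was 31.9% in Rpl26-201, 45.1% in Gm15772-201 and 26.8% in Gm10136-201. Rpl26-205, a transcript with no defined coding sequence, had 0 such windows among 391.

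The main Ubb transcript, Ubb-201 (ENSMUST00000019649), was lower in every Upf3b-KO library than in every Ctrl library. Its level was 2276, 2336, 2323 and 2327 CPM in the FC Ctrl libraries and 1134, 1088, 1131 and 1126 in FC Upf3b-KO. In Cere it was 2519, 2420.5, 2354 and 2451 CPM in Ctrl and 1194, 1182 and 1174 in Upf3b-KO. The groups did not overlap in either region, and the mean level was 2.07-fold lower in FC and 2.06-fold lower in Cere. Ubb-202 (ENSMUST00000136938), a short isoform that shares much of its sequence with Ubb-ps, was at 6.18 to 12.8 CPM in FC Ctrl and 10.6 to 37.9 in FC Upf3b-KO, where the groups overlapped. It was at 0.863 to 9.68 CPM in Cere Ctrl and 10.03 to 11.6 in Cere Upf3b-KO, where they did not.

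Both transcripts of Ubb-ps were high in Upf3b-KO. Ubb-ps-201 (ENSMUST00000111388) was at 117, 155, 142 and 136 CPM in FC Ctrl and 723, 720.1, 753 and 731 in FC Upf3b-KO. In Cere its level was 172, 147, 123 and 135 CPM in Ctrl and 765, 774 and 756 in Upf3b-KO. The ratio of the means was 5.33 in FC and 5.31 in Cere, with no overlap in either. Ubb-ps-202 (ENSMUST00000227415) was at 11.8 to 17.4 CPM in FC Ctrl against 94.996 to 106 in FC Upf3b-KO, and at 11.6 to 18.1 in Cere Ctrl against 104 to 109 in Cere Upf3b-KO. These are ratios of 6.80 and 7.24.

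Gm8797-201 (ENSMUST00000192045) had the largest ratio in the Ubb group, from a few CPM in every Ctrl library to 196 to 213 in the deep Upf3b-KO libraries. It was at 3.99, 3.45, 4.27 and 3.98 CPM in FC Ctrl and at 199.6, 199, 196 and 198 in FC Upf3b-KO. In Cere it was at 4.49, 3.26, 4.06 and 4.18 CPM in Ctrl and at 200.4, 206 and 213 in Upf3b-KO. The ratio of the means was 50.5 in FC and 51.7 in Cere. The SD of the FC Upf3b-KO values, 1.39 CPM, was no larger than the 2.501 CPM that counting error alone gives at 5957 to 6703 counts per library.

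**Figure D1:**
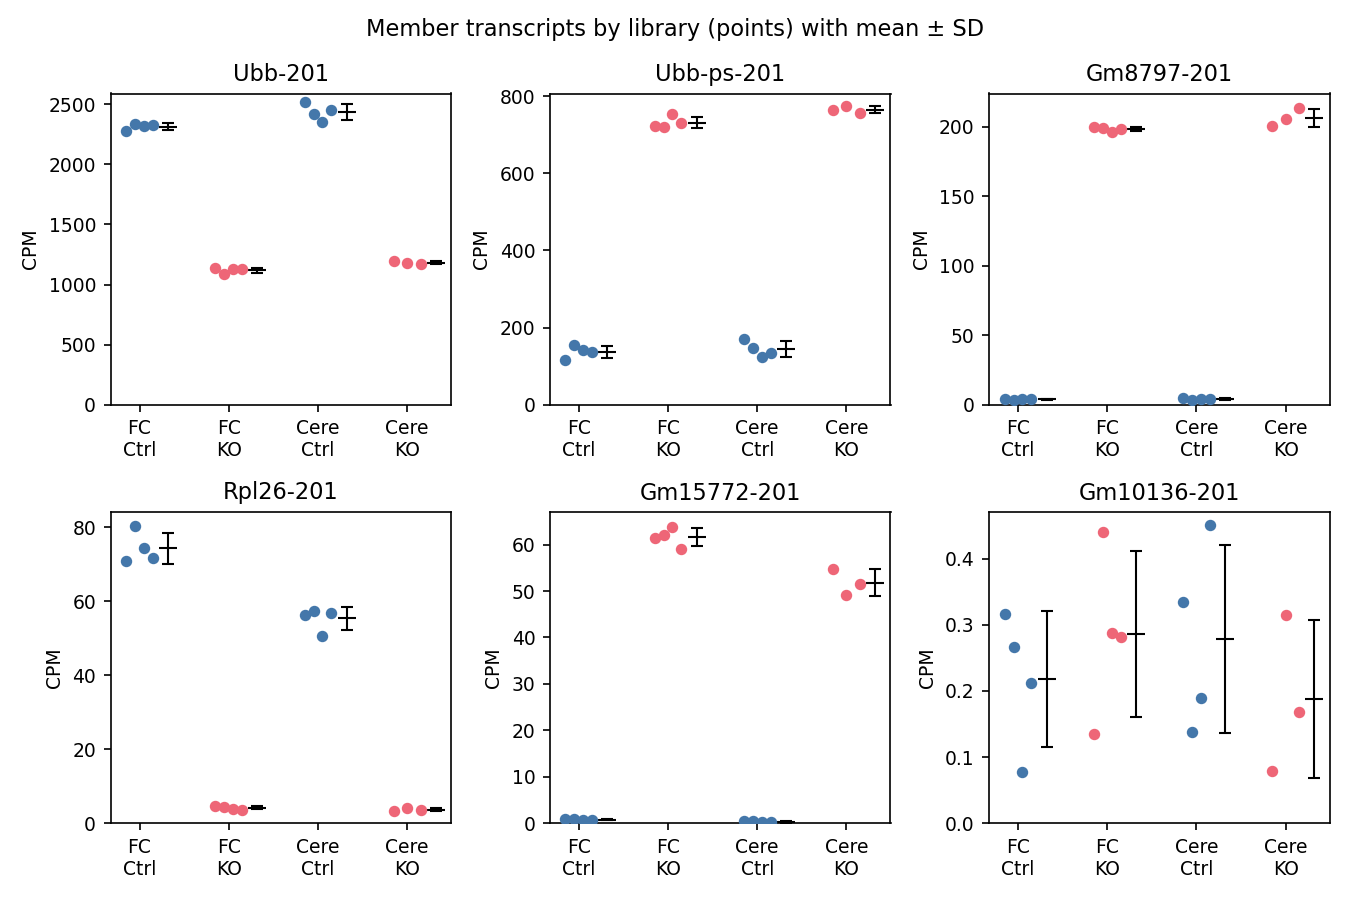
CPM (linear axis from 0) of the main transcript of each member in the 15 deep libraries. Each point is a library, and the black mark and bar are the mean and SD (n = 4, and n = 3 in Cere Upf3b-KO). Ubb-201 and Rpl26-201 lie lower and Ubb-ps-201, Gm8797-201 and Gm15772-201 higher in every Upf3b-KO library than in every Ctrl library, while Gm10136-201 stays at or below 0.452 CPM.

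Rpl26-201 (ENSMUST00000073471), the main Rpl26 transcript, was nearly lost from the estimates in Upf3b-KO. It was at 70.9, 80.3, 74.4 and 71.8 CPM in FC Ctrl and 4.56, 4.36, 3.87 and 3.68 in FC Upf3b-KO. In Cere its level was 56.4, 57.4, 50.8 and 57.0 CPM in Ctrl and 3.30, 4.09 and 3.55 in Upf3b-KO. The mean was 18.04-fold lower in FC and 15.2-fold lower in Cere, and no Upf3b-KO library came near a Ctrl library. Gm15772-201 (ENSMUST00000118533) showed the opposite pattern. It was at 0.790, 0.913, 0.603 and 0.633 CPM in FC Ctrl and 61.5, 62.1, 63.8 and 59.0 in FC Upf3b-KO. In Cere it was at 0.569, 0.403, 0.190 and 0.166 CPM in Ctrl and 54.8, 49.1 and 51.6 in Upf3b-KO. The ratio of the means was 83.8 in FC and 156 in Cere, where the Ctrl values rest on 4.6 to 19.7 estimated counts per library.

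The other transcripts of the Rpl26 group were at 1.5 CPM or less in every deep library. Gm10136-201 (ENSMUST00000183196), the copy with more differences, ranged from 0.078 to 0.452 CPM over the 15 deep libraries, and its groups overlapped in both regions. Rpl26-203 was at 0.118 to 0.898 CPM and Rpl26-202 at 0 to 1.5, also with overlap. Rpl26-204 and Rpl26-206 did not exceed 0.255 CPM. Rpl26-205, the transcript that shares no 100-base window with another gene, was at 1.02, 1.18, 0.406 and 0.683 CPM in FC Ctrl and at 0 in all 4 FC Upf3b-KO libraries. Against the limit that 3 counts set in the shallowest of those libraries (0.0989 CPM), it was at least 8.32-fold lower in FC Upf3b-KO. It was at 0.0868 to 0.297 CPM in Cere Ctrl and at 0 in the 3 Cere Upf3b-KO libraries, where the Ctrl level is too close to the limit for a fold to be given.

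Over the 13 transcripts, the genotypes did not overlap for 7 in FC, with 4 higher and 3 lower in Upf3b-KO, and for 8 in Cere, with 5 higher and 3 lower. Of the 9 that passed the filter on low counts in each region, 7 did not overlap in FC (4 higher and 3 lower) and 7 in Cere (5 higher and 2 lower). Among all transcripts past the filter, the genotypes did not overlap for 23.9% in FC, 15.8% higher and 8.09% lower in Upf3b-KO, and for 35.9% in Cere, 19.4% higher and 16.5% lower. By a different and stricter measure, edgeR's quasi-likelihood test at an adjusted p under 0.01 and over 2-fold, 3.22% of all transcripts were called in FC and 4.76% in Cere. Nothing is read from these shares, since the members were chosen on the same contrast.

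The share of each group's counts that was assigned to each gene was followed within each library. Shares of a group add up to the whole, so a lower share of a parent goes with higher shares of its copies. Whether reads or RNA moved from parent to copy was not tested. Ubb-201 held 93.4% ± 0.381 (SD, n = 4) of the Ubb group sum in FC Ctrl and 51.5% ± 0.757 (n = 4) in FC Upf3b-KO. In Cere its share was 93.6% ± 0.715 (n = 4) in Ctrl and 52.1% ± 0.305 (n = 3) in Upf3b-KO. Ubb-ps-201 held 5.53% ± 0.557 and 33.6% ± 0.348 in FC Ctrl and FC Upf3b-KO, and Gm8797-201 0.158% ± 0.0149 and 9.11% ± 0.168. The corresponding Cere shares were 5.52% ± 0.616 and 33.7% ± 0.243 for Ubb-ps-201, and 0.153% ± 0.0184 and 9.09% ± 0.331 for Gm8797-201. Within a genotype, the shares of these 3 transcripts in FC and Cere thus lay within 1 percentage point of each other.

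Most of the Rpl26 group sum was assigned to Rpl26-201 in Ctrl and to Gm15772-201 in Upf3b-KO. Rpl26-201 held 96.7% ± 0.510 (SD, n = 4) of the sum in FC Ctrl and 6.14% ± 0.590 (n = 4) in FC Upf3b-KO, and Gm15772-201 0.954% ± 0.155 and 91.9% ± 0.544. In Cere Rpl26-201 held 97.8% ± 0.521 (n = 4) in Ctrl and 6.51% ± 0.973 (n = 3) in Upf3b-KO, against 0.582% ± 0.322 and 92.1% ± 1.42 for Gm15772-201. Gm10136-201 held at most 0.770% of the sum in any deep library.

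**Figure D2:**
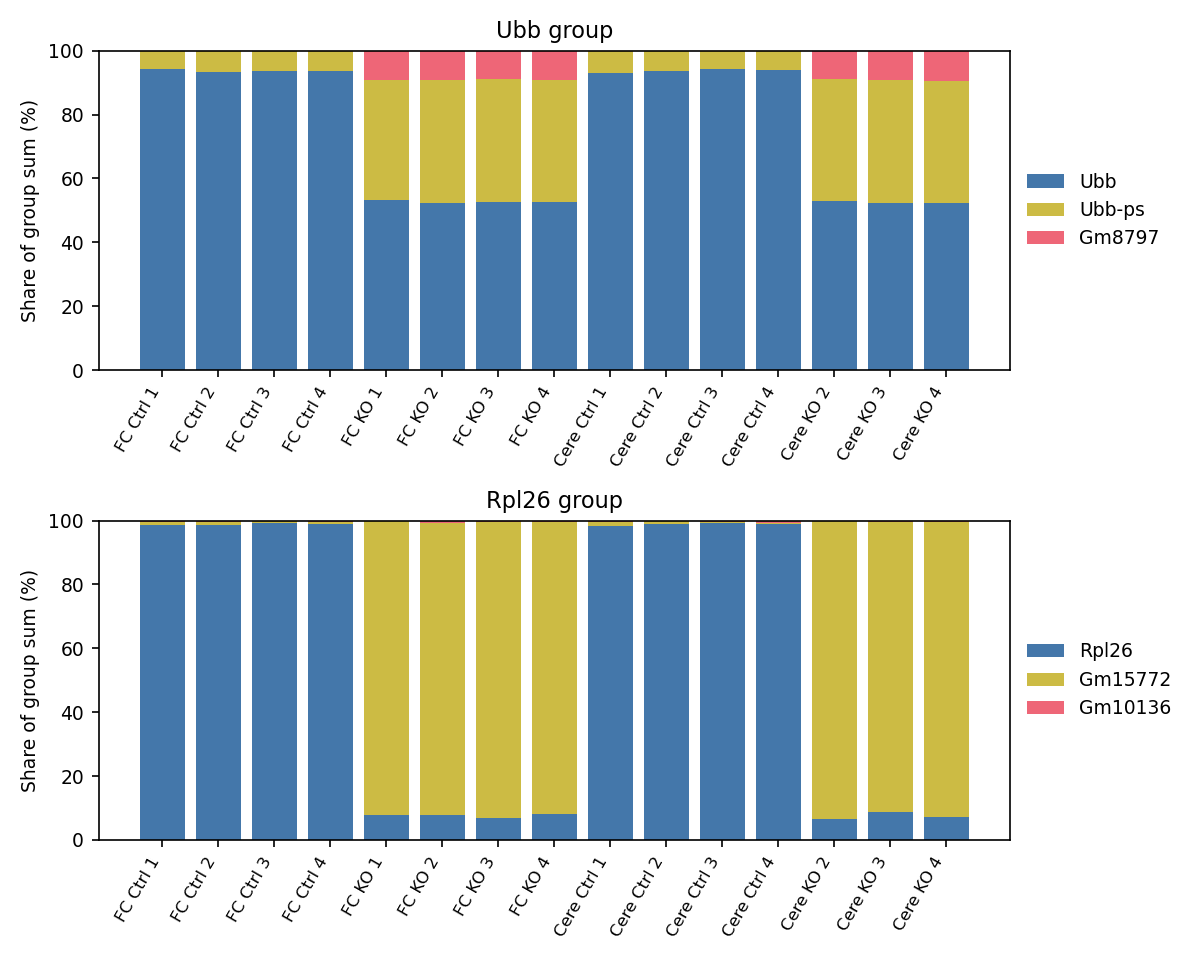
Share of the group sum (%) assigned to each gene, transcripts added, in each of the 15 deep libraries, for the Ubb group (top) and the Rpl26 group (bottom). Every Ctrl bar is filled mostly by the parent gene. In Upf3b-KO, Ubb-ps and Gm8797 take close to the same part of the Ubb sum in each library, and Gm15772 takes 90.6% to 93.4% of the Rpl26 sum.

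Summed over each group, the genotypes differed far less than the single genes did. The Ubb group sum was 2425, 2514, 2489 and 2494 CPM in FC Ctrl and 2176, 2150.1, 2214 and 2162 in FC Upf3b-KO. In Cere it was 2720.1, 2584, 2500.0 and 2605 CPM in Ctrl and 2279, 2282 and 2259 in Upf3b-KO. The sum was thus lower in every Upf3b-KO library than in every Ctrl library, by a factor of 1.14 in both regions. On the CPM scale the Ubb gene was lower by 1179 CPM in FC Upf3b-KO and its copies together higher by 874, which is 74.1% of that loss. In Cere the corresponding values were 1245 and 916 CPM, or 73.6%.

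The Rpl26 group sum was 73.3, 83.5, 76.4 and 74.3 CPM in FC Ctrl and 66.8, 67.8, 69.0 and 64.6 in FC Upf3b-KO, a ratio of 0.872 without overlap. In Cere it was 57.7, 58.4, 51.8 and 58.7 CPM in Ctrl and 58.7, 54.2 and 55.8 in Upf3b-KO, a ratio of 0.993 with overlapping groups. The copies gained 61.0 CPM against a loss of 70.8 by Rpl26 in FC (86.1%) and 51.4 against 51.8 in Cere (99.2%). Fitted log2 changes of the sums, which use TMM scaling, were −0.26 (Ubb) and −0.27 (Rpl26) in FC and −0.24 and −0.06 in Cere. In FC this scaling placed both sums 0.08 lower on the log2 scale than plain CPM did, and in Cere 0.05 lower.

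**Figure D3:**
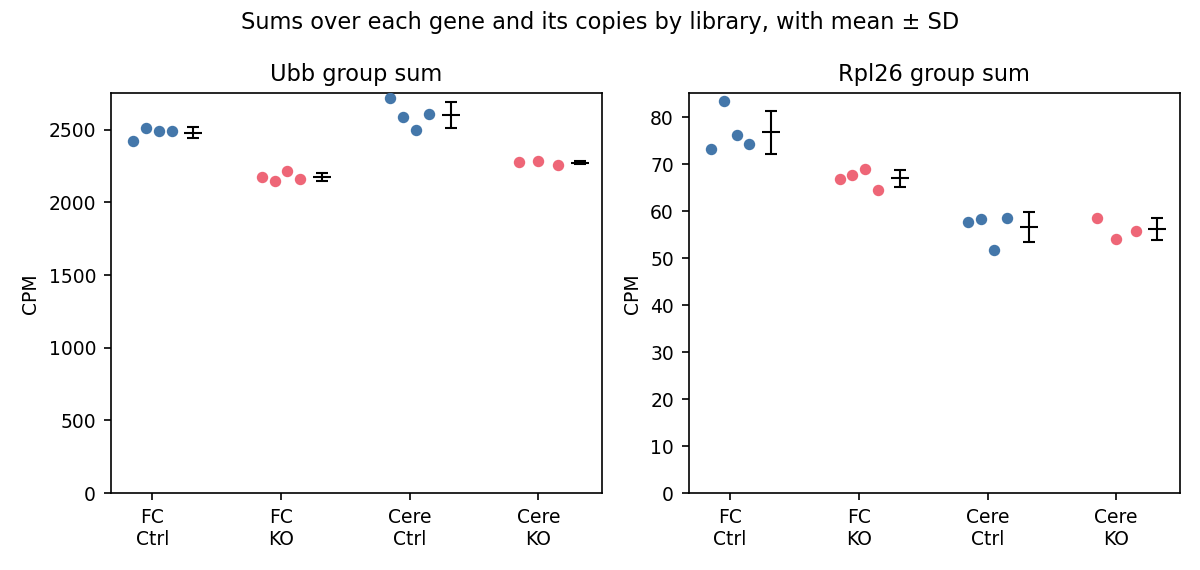
CPM summed over each gene and its copies in the 15 deep libraries (axis from 0), with the mean and SD beside the points. The Ubb sum lies between 2150.1 and 2282 CPM in Upf3b-KO and between 2425 and 2720.1 in Ctrl, and the Rpl26 sums of the genotypes overlap in Cere.

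To compare levels between genes, CPM was divided by transcript length in kilobases and added over the transcripts of a gene. In FC Ctrl the order was Ubb (913 CPM per kb), Ubb-ps (220.0), Rpl26 (129), Gm8797 (8.01), Gm15772 (1.68) and Gm10136 (0.502). In FC Upf3b-KO it was Ubb-ps (1201 CPM per kb), Ubb (466), Gm8797 (405), Gm15772 (141), Rpl26 (8.74) and Gm10136 (0.658). Neighbours in these orders did not overlap between libraries. The orders in Cere were the same as in FC for each genotype, except that the ranges of Gm15772 (0.758 CPM per kb) and Gm10136 (0.641) overlapped in Cere Ctrl. Per length, Ubb-ps was therefore set above its parent in Upf3b-KO.

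Whether the members differ between regions was asked within each genotype, as Cere minus FC, with the same model fitted across all transcripts. Of the 13 transcripts, 9 passed the filter on low counts in Ctrl and 8 in Upf3b-KO. In Ctrl, Rpl26-205 alone was called, with a log2 change of −2.43 (SE 0.55, adjusted p = 0.00811 in edgeR), while 14.9% of all tested transcripts were called in that contrast. It held 34, 39, 14 and 22 counts in FC Ctrl and 3, 3, 9 and 5 in Cere Ctrl, so that it passed the filter through its FC libraries alone, and nothing is read from the call. The call was lost without FC Ctrl replicate 1, 2 or 4 and without Cere Ctrl replicate 1, 2 or 4 (adjusted p = 0.0184 to 0.0276), without the filter (0.0303) and with a replicate block (0.0657). Rpl26-201 had a log2 change of −0.54 (SE 0.05, adjusted p = 6.8e-05), which is under the 2-fold limit for a call, and its 4 Cere libraries all lay below the 4 FC libraries. In Upf3b-KO, 0 of the 8 members were called, against 10.1% of all transcripts, with 2 of them at an unadjusted p under 0.05 against 38.5% of all transcripts. In Ctrl 3 of the 9 were under that limit, against 45.9%. Among them were Rpl26-205 and Gm15772-201, which both passed the filter through their FC libraries. DESeq2 called 1 of the 8 in Upf3b-KO, Ubb-202 (adjusted p = 0.00214). In that contrast Gm15772-201 had a log2 change of −0.29 (SE 0.05, adjusted p = 0.00267), and its Cere libraries also lay below all FC libraries. Rpl26-201 gave −0.22 (SE 0.18, adjusted p = 0.432) in Upf3b-KO.

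Apart from Ubb-202, the transcripts of the Ubb group had fitted regional changes within −0.10 to 0.06. Ubb-201 had a log2 change of −0.04 (SE 0.02, adjusted p = 0.110) in Ctrl and 0.04 (SE 0.02, adjusted p = 0.155) in Upf3b-KO by the same test. In CPM, all Cere libraries lay above all FC libraries for Ubb-201 in both genotypes, so that its direction in Ctrl depended on the scaling, which moved it by −0.12 on the log2 scale. Ubb-ps-201 gave −0.05 (SE 0.11) and 0.02 (SE 0.02), Gm8797-201 −0.09 (SE 0.16) and 0.01 (SE 0.02), and Ubb-ps-202 −0.10 (SE 0.17) and 0.06 (SE 0.04) in Ctrl and Upf3b-KO. None of these 3 passed in either genotype. Gm15772-201 in Ctrl gave −1.19 (SE 0.44, adjusted p = 0.0661 by the same test) at under 1 CPM. It held 20.4 to 30.1 counts in the FC Ctrl libraries and 4.6 to 19.7 in Cere Ctrl. It thus passed the filter through its FC libraries, and nothing is read from this fit. Rpl26-203 gave −0.66 (SE 0.64) in Ctrl and −0.09 (SE 0.58) in Upf3b-KO. Ubb-202 was lower in Cere by log2 changes of −1.52 (SE 0.75) and −1.29 (SE 0.40), with adjusted p = 0.154 and 0.0489, and was not called. Without Cere Ctrl replicate 1, where it was at 9.68 CPM, its change in Ctrl was −2.87 (adjusted p = 9.7e-04).

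The group sums were then tested among all genes, with each parent and its copies counted as 1 gene and an adjusted p under 0.05 as the threshold. By that rule 76.6% of all genes passed in Ctrl and 71.1% in Upf3b-KO, so a pass was common. The Rpl26 group sum fell from FC to Cere in both genotypes, by a log2 change of −0.50 (SE 0.04, adjusted p = 1.05e-09) in Ctrl and −0.27 (SE 0.04, adjusted p = 1.09e-06) in Upf3b-KO. The Ubb group sum rose in Cere by 0.05 (SE 0.01, adjusted p = 1.56e-04 in edgeR) in Upf3b-KO. Its change in Ctrl was 0.01 (SE 0.02, adjusted p = 0.496), with an approximate 95% interval of −0.02 to 0.05. By library totals that change passed (0.07, adjusted p = 0.00171). Whether the regional difference itself depends on genotype was not tested, because the genotype contrast chose the members.

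**Figure D4:**
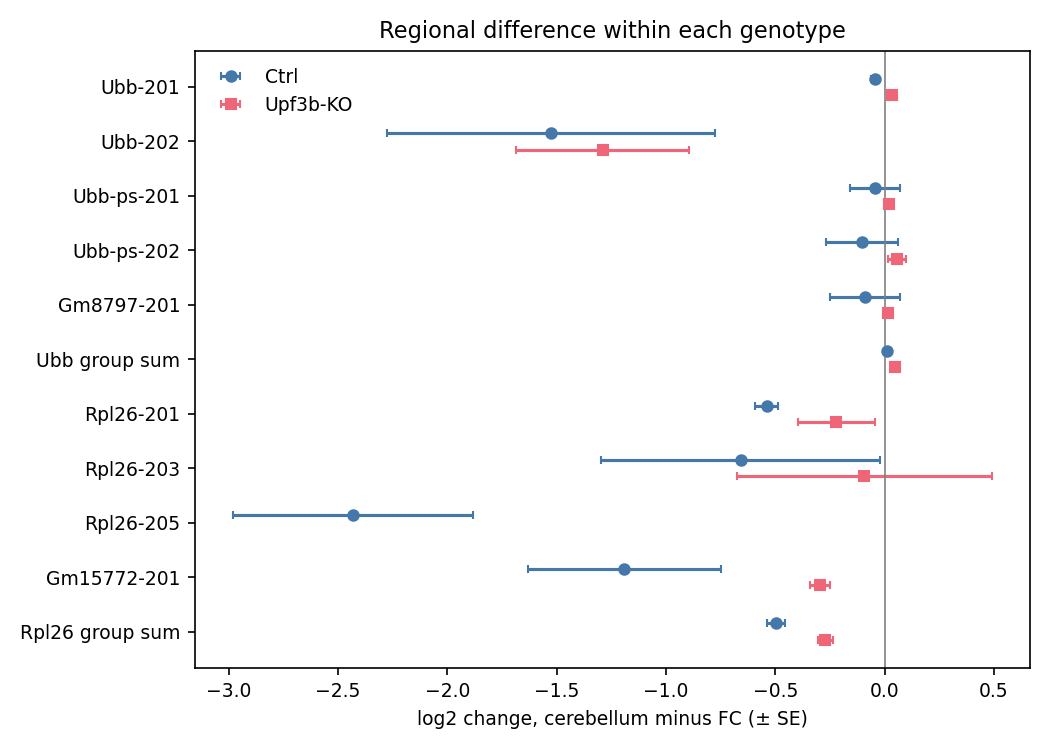
Fitted log2 change from FC to Cere (x axis, bars are SE) for the member transcripts past the filter and for both group sums, in Ctrl (circles) and Upf3b-KO (squares). The Rpl26 sum lies at −0.50 and −0.27, the Ubb sum at 0.01 and 0.05, and Rpl26-205 could be fitted in Ctrl only.

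Genes that handle ubiquitin were compared between the genotypes to place the Ubb values, by edgeR's quasi-likelihood test over genes with the copies summed. In that fit 53.4% of all genes passed in FC, 5096 of them higher and 4612 lower in Upf3b-KO, and 64.5% in Cere, 5885 higher and 5566 lower. Scaled by library totals alone, without TMM, the split was 6653 higher and 3060 lower in FC and 6578 and 4862 in Cere, and the median change of all genes moved from 0.00 to 0.08 in FC and from 0.01 to 0.06 in Cere. List counts are therefore given for both scalings. Of 8 genes that activate ubiquitin or cut it from precursors and chains, 6 fell and 1 rose in FC, and 5 rose and 1 fell in Cere. By library totals 6 fell and 2 rose in FC, and 6 rose and 1 fell in Cere. On the log2 scale, the lowest and highest changes in FC were −0.32 for Otulin, which cuts linear ubiquitin chains, and 0.09 for Uchl5, a proteasome-bound ubiquitin hydrolase. Uchl1, a ubiquitin hydrolase abundant in neurons, rose in Cere from 54.1 ± 2.70 CPM (SD, n = 4) to 245 ± 4.42 (n = 3), a log2 change of 2.13. It was at 283 ± 3.29 CPM in FC Ctrl and 269 ± 2.79 in FC Upf3b-KO. Uba1, the main ubiquitin-activating enzyme, fell in both regions, by −0.17 in FC and −0.15 in Cere.

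Ribosomal proteins around the tunnel exit gave a comparison for Rpl26. Of 7 such genes, 5 fell in FC Upf3b-KO, 0 rose and 2 did not pass, with a median change of −0.10 on the log2 scale, against 0.00 over all genes. By library totals only 2 fell and 5 did not pass, with a median of −0.03 against 0.08 over all genes, so the count in FC depended on the scaling. In Cere 4 rose and 3 did not pass, with a median of 0.13 against 0.01 over all genes, and by library totals 5 rose, with a median of 0.18 against 0.06. The range was −0.22 (Rpl17) to −0.01 (Rpl23a, not passed) in FC and −0.04 (Rpl22, not passed) to 0.15 (Rpl19) in Cere. The Rpl26 group sum, at −0.27 in FC and −0.06 in Cere, is given beside them as a description. Rpl26 without its copies was at −3.96 and −3.77. Between the regions all 7 fell from FC to Cere in both genotypes under both scalings, by medians of −0.52 in Ctrl and −0.24 in Upf3b-KO, and the Rpl26 sum (−0.50 and −0.27) lay inside their ranges.

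Of the 7 genes of the UFM1 pathway, which modifies Rpl26, 1 rose and 1 fell in FC Upf3b-KO, and 3 rose and 2 fell in Cere. By library totals 2 rose and 0 fell in FC, and 4 rose and 1 fell in Cere. UFM1 itself, Ufm1, fell in both regions (−0.12 and −0.13), but in FC it did not pass by library totals (−0.04, adjusted p = 0.339), and Ufsp2, a protease that matures UFM1 and removes it, rose in both (0.11 and 0.65). Among 3 genes around p53, Mdm2, which encodes its ubiquitin ligase, rose in FC (0.18, adjusted p = 6.78e-05), and neither Trp53 (0.11) nor Cdkn1a (0.11), a p53 target, passed. In Cere 0 of the 3 passed or had an unadjusted p under 0.05, and Trp53 was at 0.10, Mdm2 at 0.01 and Cdkn1a at −0.12. By library totals all 3 rose in FC and 1 of the 3 in Cere.

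**Figure D5:**
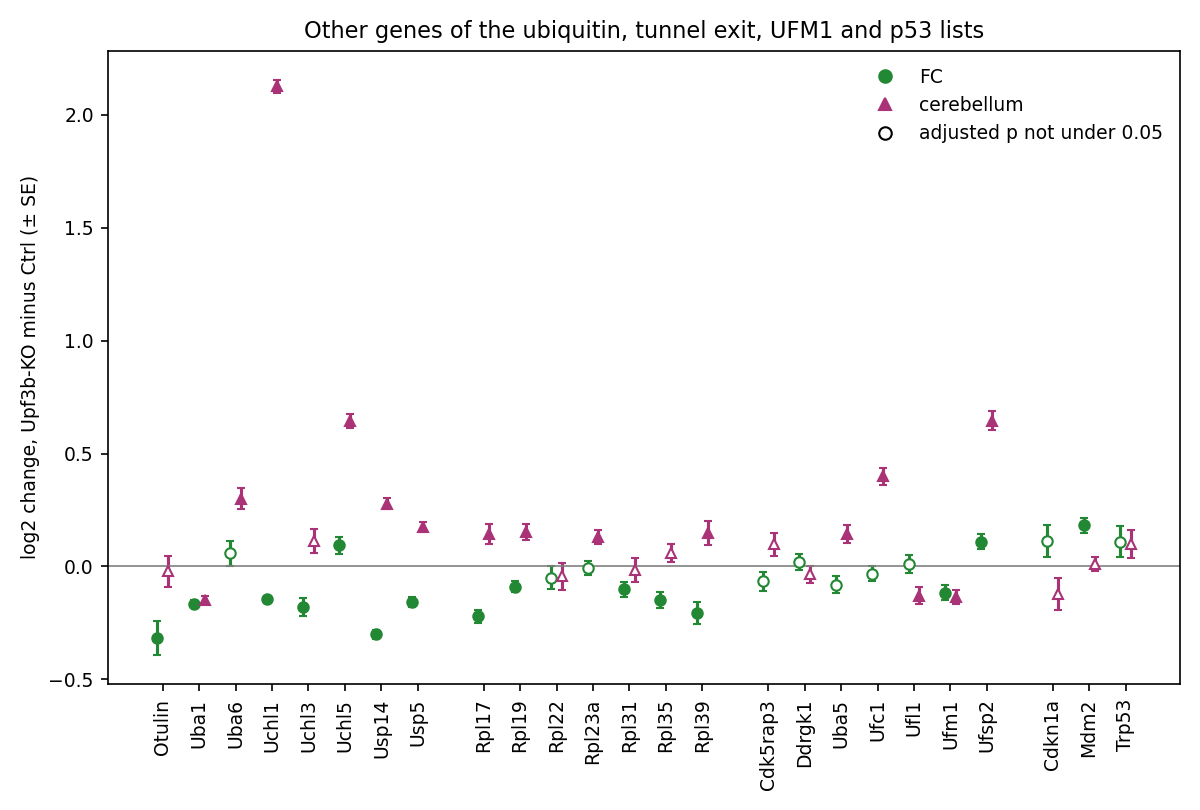
Fitted log2 change of Upf3b-KO against Ctrl (y axis, bars are SE) for genes other than the members in the lists of ubiquitin activation and processing, tunnel exit ribosomal proteins, UFM1 pathway and p53, in FC (circles) and Cere (triangles). Filled symbols passed at an adjusted p under 0.05 with TMM scaling, and Uchl1 in Cere lies highest at 2.13.

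Genes next to the members on the chromosomes were counted to show whether the pattern extended along the sequence. Among up to 5 genes past the filter on each side of each member, 31 of 53 passed in FC (58.5%) and 35 of 54 in Cere (64.8%), beside 53.4% and 64.5% over all genes. Gm15772 had 5 such genes, on 1 side only, and Gm8797 had 8 in FC and 9 in Cere, the farthest at 2914 kb. Of the 10 genes around Ubb, 6 passed in FC with changes from −0.52 to 0.53 and none over 2-fold, and 7 passed in Cere, 2 of them over 2-fold. Around Rpl26, 6 of 10 passed in FC and 7 of 10 in Cere, with 1 over 2-fold in each. Of the genes around Ubb-ps, 5 of 10 passed in FC (3 higher and 2 lower) and 5 of 10 in Cere (5 higher and 0 lower), with changes up to 2.96 and 2.76. Around Gm8797, 5 of 8 passed in FC (4 higher and 1 lower) and 5 of 9 in Cere (3 higher and 2 lower), with changes up to 2.74 and 2.87. Around Gm15772, 3 of 5 passed in FC (1 higher and 2 lower) and 4 of 5 in Cere (0 higher and 4 lower). Around Gm10136, 6 of 10 passed in FC (3 higher and 3 lower) and 7 of 10 in Cere (4 higher and 3 lower).

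The genes whose levels followed the main transcripts most closely were sought over the 15 deep libraries, among the 10322 genes that averaged 10 CPM or more. The correlations are descriptions of libraries that share their genotype and region. Ubb-201 was most like Ccar2 (Pearson r = 0.999), Snapc1 (0.996) and Pttg1 (0.996). Ccar2 was at 95.9 CPM in FC Ctrl and 16.8 in FC Upf3b-KO, and Pttg1 at 40.3 and 3.88. Rpl26-201 was most like Rad23b (r = 0.995), at 151 and 81.8 CPM in FC Ctrl and FC Upf3b-KO, and again Pttg1 (0.990) and Ccar2 (0.989). The Ubb group sum was most like Tmem276 (r = 0.973), Abcb10 (0.966) and Khsrp (0.965), and the Rpl26 group sum most like Apoe (0.964), the ribosomal RNA gene Rn18s-rs5 (0.962) and Scamp5 (0.961).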

How the data were processed

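The authors depleted ribosomal RNA, made SMART-Seq v4 PLUS libraries and sequenced read pairs for 100 cycles. Reads were aligned to GRCm39 with STAR 2.5.2b and quantified with RSEM. What was deposited is an expected count for each Ensembl transcript, not scaled for depth or length. Use of strand in counting was not given in the sources used here. Names, lengths and sequences came from GENCODE vM39, whose release differs from that of the authors (141102 of 142435 transcripts matched, with 99.3% to 99.4% of counts). It lists 42 transcripts of the members, of which the matrices held 13.

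After rounding, counts were fitted with edgeR 4.0.16 (R 4.3.3, limma 3.58.1) by filterByExpr (minimum count 10, minimum total 15), TMM scaling and glmQLFTest, with p-values adjusted by Benjamini-Hochberg over all features tested. Transcripts were called at an adjusted p under 0.01 and over 2-fold. Genes, with each parent and its copies summed, passed at an adjusted p under 0.05. SE is the absolute log2 change over the square root of F. Alternatives were DESeq2 1.42.0, median-of-ratios scaling, library totals without TMM (chosen after seeing the data), no filter, a replicate block, the other of both thresholds, each library left out, the shallow library included, copies not summed, and sums widened to transcripts of at least 95% identity over at least 50% of their length (BLAST 2.17.0). Python 3.11.15 and pandas 2.3.3 made the other tables.

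The members and gene lists were chosen with earlier results of these data known. A further gene list is not reported here. Named genes are all members, the largest and smallest changes of each list, Upf3b, counts of up to 5 neighbours on each side, and the 3 genes with the highest Pearson r of log2(CPM + 0.5). Beyond this rule, Uba1, Ufm1 and the whole p53 list were named after their values were seen. Wilson intervals and limits from 3 counts describe the error of counting alone, because these reads carry no molecular identifiers. The interval of a fitted change was built from its SE with the normal quantile and includes the spread between libraries. With few libraries it is narrower than the F test would give. Libraries of a group differed by more than the error of counting over genes (chi-square per degree of freedom 2.74 to 3.80). Each was kept as a separate sample, as labelled. Separate preparations of the same RNA could also differ in this way, so the spread does not show that libraries are independent.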

Additional observations from a re-analysis of the deposited data

Results flagged for a closer look

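Among 50 sets of 4 libraries for the member transcripts, genes and sums, 5 had a library set apart from the other 3 by more of the whole range than the 95% critical value of Dixon's test, which chance passes in about 5% of sets. All 5 were in Cere Ctrl. Ubb-202 was at 9.68 CPM in replicate 1 against 0.863 to 1.89 in the others. Rpl26-201 was at 50.8 CPM in replicate 3 against 56.4 to 57.4, and the Rpl26 group sum at 51.8 CPM in the same library against 57.7 to 58.7. Rpl26-202 was at 0.205 CPM in replicate 3 and Rpl26-204 at 0.134 CPM in replicate 1, each with 0 in the others, which are values of a few counts.

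The shallow Cere Upf3b-KO replicate 1, which was left out of the reported comparisons, held 138 counts of the Ubb group. Ubb-ps-201 was at 682 CPM there and Gm8797-201 at 254 CPM, both above every Ctrl library. Ubb-201 took 55.6% of the Ubb sum in that library (95% Wilson interval 47.5% to 63.8%), Ubb-ps-201 32.1% (24.7% to 40.1%) and Gm8797-201 12.0% (7.26% to 18.00%), and each of these 3 intervals holds the mean share of the 3 deep Cere Upf3b-KO libraries. Ubb-ps-202 had 0 counts there (Wilson interval 0% to 2.71%), below its shares of 4.62% to 4.79% in the deep libraries, and Ubb-202 had 0.41 counts (0% to 2.71%), against 0.440% to 0.510%. The Rpl26 group had 4 counts, of which 68.2% were given to Gm15772-201 (30.1% to 95.4%).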

How the results depend on the processing

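Of 684 values recomputed under the alternatives, 618 kept their direction and their side of the threshold or, for counts and values without a test, stayed near the reported one. With the replicate block the counts of called transcripts were 3992 (Ctrl, Cere against FC), 1811 (Upf3b-KO, Cere against FC), 460 (FC, Upf3b-KO against Ctrl) and 553 (Cere, Upf3b-KO against Ctrl), in place of 6219, 4637, 1362 and 2113. Not every pair of libraries with the same number deviated together (r of −0.10 to 0.15, with 2 of 3 libraries closest to their own number in the Cere genotype comparison, 1 of 4 in FC and 0 of 4 and 0 of 3 between the regions in Ctrl and Upf3b-KO), and no label ties libraries to mice, so the numbers were not taken as pairs. With DESeq2 the last 3 counts were 7488, 2755 and 4188, and with an adjusted p under 0.05 and no fold limit all 4 were 16133, 13478, 6920 and 10028. With the shallow library the Cere genotype count was 977, and leaving out a library gave 1354 to 1767. Genes with copies summed at an adjusted p under 0.01 and over 2-fold numbered 4399, 4297, 1851 and 2335, in place of 13394, 13466, 9708 and 11451.

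The Ubb group sum in Ctrl, Cere against FC, ranged from −0.00048 to 0.036 when a library was left out, reversed without Cere Ctrl replicate 1 and past the threshold without Cere Ctrl replicate 3 (adjusted p = 0.0417). Changes of member transcripts that turned sign were small and not called. Over the fits without a library, the Ctrl changes ranged from −0.129 to 0.033 for Ubb-ps-201, from −0.207 to 0.0077 for Ubb-ps-202 and from −0.151 to 0.0045 for Gm8797-201, and the Upf3b-KO changes from −0.409 to 0.068 for Rpl26-203 and from −0.012 to 0.035 for Gm8797-201. By library totals without TMM, the Ctrl changes turned to 0.073 for Ubb-201, 0.070 for Ubb-ps-201, 0.012 for Ubb-ps-202 and 0.026 for Gm8797-201, and that of the Ubb group sum rose to 0.069, past the threshold. With the block Rpl26-203 turned to 0.252 in Upf3b-KO. With the shallow library, Ubb-201 turned to −0.071, Ubb-ps-201 to −0.080, Ubb-ps-202 to −0.0088 and Gm8797-201 to −0.019 in Upf3b-KO, and the adjusted p of Gm15772-201 rose to 0.0636. The causes were not tested. Depth limits Gm10136-201 and the Rpl26 isoforms other than Rpl26-201, which rest on few counts.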

Other observations

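Other transcripts with at least 95% identity to Ubb or Rpl26 over at least 50% of their length were looked up, to see what levels further copies had. There were 2 for Ubb (Gm12328 and Gm44389) and 6 for Rpl26 (Gm11826, Gm13268, Gm19620, Gm45420, Gm8253 and Rpl26-ps4). None exceeded 1.22 CPM in a deep library. Gm12328 was at 0.891 and 0.727 CPM in FC Ctrl and FC Upf3b-KO and at 1.02 and 0.8287 in Cere. Gm11826, which matched Rpl26 at 98.2% over its whole length, was at 0.078 and 0.166 CPM in FC and at 0.0713 and 0.109 in Cere. With these copies added, the fitted log2 changes of the sums between genotypes were −0.26 (Ubb) and −0.27 (Rpl26) in FC and −0.24 and −0.06 in Cere, as without them to 2 decimals.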
